A study of Mus musculus with 2 samples.

Results

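The genes described here are those of the hypoxia-inducible factor (HIF) system that senses oxygen: 5 genes of the factor's subunits, 4 genes of the hydroxylases that act on it, and the gene of the ubiquitin ligase receptor Vhl. They were chosen by gene symbol from the annotation of the array's probes. All 10 were found, 9 under the listed symbol and Vhl under its older symbol Vhlh, among 16444 named genes. Each of the 10 was measured by 1 probe, so no choice between probes had to be made.

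Total RNA was measured on 1-colour oligonucleotide arrays, 1 array per group. The gene-trapped group came from mouse embryonic stem cells with both copies of AU019823 disrupted by gene trapping, the insertion of a cassette that cuts transcripts short, and the revertant group from stem cells of a genotype described as close to wild type. Both were grown on OP9 bone marrow stromal cells, which promote blood formation, for 4 days per the protocol (day 4.5 per the sample descriptions), and cells bearing Flk-1, the surface receptor encoded by Kdr, were collected by sorting; RNA came from 350000 revertant and 300000 gene-trapped cells. With no replicate there is no test, each difference compares these 2 arrays, and the sample descriptions give the groups different codes, so a clone and the genotype cannot be told apart if the codes name clones.

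HIF is a pair of proteins, an alpha subunit (from Hif1a, Epas1 or Hif3a) and a beta subunit (from Arnt or Arnt2). In the presence of oxygen the EGLN enzymes hydroxylate prolines of the alpha subunit, the VHL protein binds the hydroxylated form and the alpha subunit is degraded. HIF1AN hydroxylates an asparagine of the alpha subunit, which hinders its binding to coactivators. Because control of the alpha subunits acts largely on the protein, transcript levels do not measure HIF activity. Egln1 and Egln3 are themselves known HIF target genes, whereas Egln2 and Hif1an are not known for induction by low oxygen.

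The gene-trapped array was dimmer over all, with a median probe signal of 38.6 against 47.5 on the revertant array, and 87.3% of named genes above background had a lower raw signal there. A gene was taken as above background when its spot median exceeded the mean of the blank spots by more than 2 SD, a limit of 24.99 for the revertant array and 22.3 for the other. All 10 members passed it on both arrays. The log2 values below are background-corrected and quantile-normalized signals, and differences are gene-trapped minus revertant. Spots of 2 positive controls, 24 spots each, had SDs of the raw log2 ratio of 0.108 and 0.0989, a technical spread between spots of an array pair and not between cultures.

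Egln1 and Egln3, the inducible prolyl hydroxylase genes, were the only members at least 2-fold apart, and both were lower in gene-trapped cells. The remaining 8 members, among them every factor subunit, differed by at most 1.20-fold in these normalized values. An offset added in the background correction narrows differences of dim genes. In the authors' processed table, which adds no offset, Arnt was 1.92-fold and Epas1 1.64-fold lower. The count of 2 in 10 members stands beside 148 of 13753 named genes above background on both arrays (1.08%) that were at least 2-fold lower. No member was at least 2-fold higher, beside 46 of all genes (0.334%); 1.41% of all genes were at least 2-fold apart in either direction. Since each probe was measured once per group and the members were chosen with earlier results known, these shares are descriptions.

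**Figure D1:**
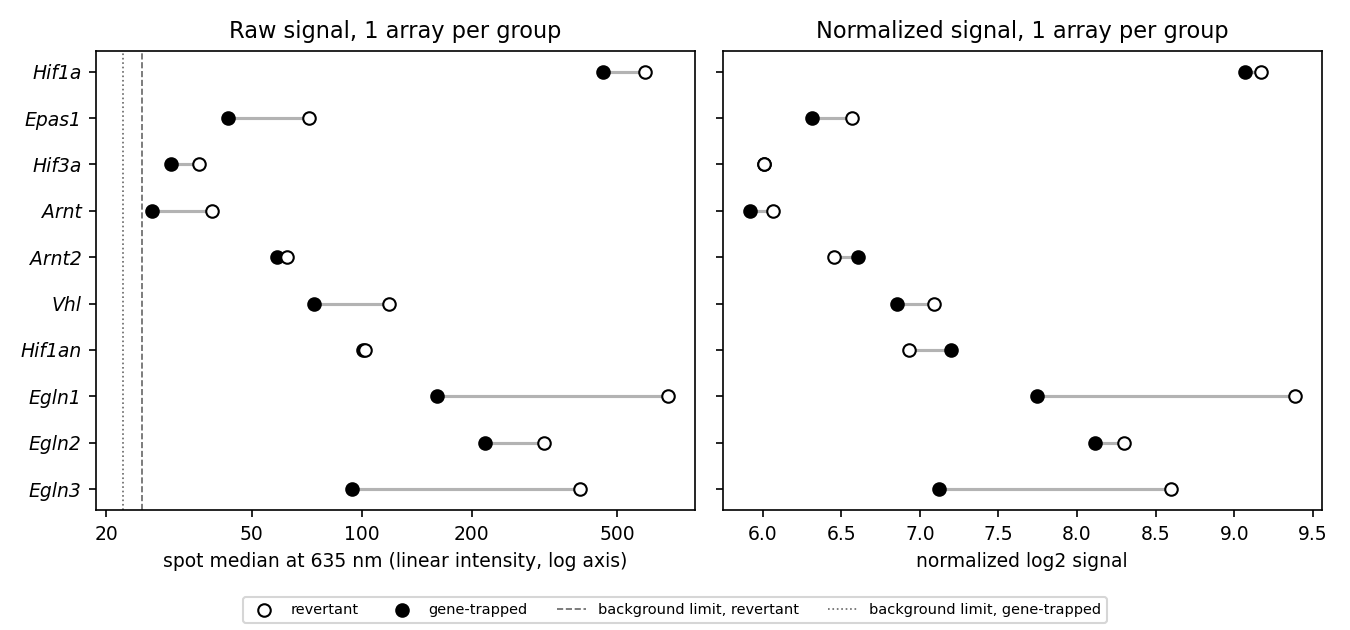
Signal of the 10 members on the revertant array (open circles) and the gene-trapped array (filled circles), as raw spot medians on a log axis (left, with each array's background limit) and as normalized log2 signal (right). The gap between arrays is widest for Egln1 (9.38 to 7.75) and Egln3 (8.59 to 7.12); levels of different probes are not comparable with each other.

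Egln1 encodes PHD2, known as the main prolyl hydroxylase that keeps HIF-1 alpha low in oxygenated cells. Its raw signal was 689 in revertant and 161 in gene-trapped cells. The normalized log2 signals were 9.38 and 7.75, a log2 difference of -1.64 (3.11-fold lower), the 25th lowest of 13753 genes. The difference is far larger than the technical spread of the control spots, and the spread between cultures is not known. In the authors' table the values were 438 and 120, 3.65-fold apart.

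Egln3 encodes PHD3, the prolyl hydroxylase gene known for strong induction by low oxygen. Raw signals were 395 and 94.1 on the revertant and gene-trapped arrays. The normalized log2 signals were 8.59 and 7.12, a log2 difference of -1.48 (2.78-fold lower), the 40th lowest. The authors' table held 245 and 63.1, 3.88-fold apart. Both inducible genes lay in the low tail, with 0.175% of all genes below Egln1 and 0.284% below Egln3.

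Another column of the scanner files, the local background around each spot, bears on Egln1. It read 601 around the Egln1 spot of the revertant and 96.2 around that of the gene-trapped array, beside spot signals of 689 and 161. When this column was subtracted, the Egln1 signals were 87.8 and 64.4 and its log2 difference was -0.26, below 2-fold, while Egln3, at 198 and 23.9, kept -1.50. The column followed spot brightness over all probes (correlations of log2 values of 0.975 and 0.956, across 23471 probes that are not independent replicates), and its part in the Egln1 difference was not tested.

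Egln2, the gene of PHD1, is the prolyl hydroxylase gene not known for induction by low oxygen. Its raw signals were 316 and 218, its log2 signals 8.30 and 8.12, and its log2 difference -0.18 (1.13-fold lower). Hif1an encodes the asparagine hydroxylase FIH. Its raw signals were 102 and 101, its log2 signals 6.93 and 7.20, and its log2 difference 0.27 (1.20-fold higher), the largest positive one among the members. The 4 hydroxylase genes therefore did not share a direction: 3 were below 0 and Hif1an was above it. Each of the 4 kept its sign in all 11 other settings. Among these, the mean of a gene's probes and a stricter or no filter cannot change a member.

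The bases before the start sites of the hydroxylase genes are shown because Egln1 and Egln3 moved together and are known HIF targets, with Egln2 and Hif1a for contrast. Windows are the 250 bases before a start site, from RefSeq (GRCm38.p6), written from 5′ to 3′ on the gene's strand. Capitals mark the core letters of HIF binding, ACGTG or GCGTG, on either strand. The windows are chr8:124949255-124949504 for Egln1, chr12:54203875-54204124 for Egln3 and chr7:27166803-27167052 for the first of 2 starts of Egln2, all on the minus strand, and chr12:73907617-73907866 for Hif1a on the plus strand.
Egln1: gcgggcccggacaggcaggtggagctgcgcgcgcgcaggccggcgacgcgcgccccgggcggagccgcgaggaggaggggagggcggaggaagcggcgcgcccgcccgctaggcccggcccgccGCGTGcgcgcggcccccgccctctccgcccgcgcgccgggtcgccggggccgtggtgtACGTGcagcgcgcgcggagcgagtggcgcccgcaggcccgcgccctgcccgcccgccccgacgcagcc
Egln3: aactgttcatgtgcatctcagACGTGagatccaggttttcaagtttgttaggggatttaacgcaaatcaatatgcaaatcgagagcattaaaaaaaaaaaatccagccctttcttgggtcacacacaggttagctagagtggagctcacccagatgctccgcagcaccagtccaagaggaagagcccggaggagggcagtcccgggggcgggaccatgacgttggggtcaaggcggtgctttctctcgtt
Egln2: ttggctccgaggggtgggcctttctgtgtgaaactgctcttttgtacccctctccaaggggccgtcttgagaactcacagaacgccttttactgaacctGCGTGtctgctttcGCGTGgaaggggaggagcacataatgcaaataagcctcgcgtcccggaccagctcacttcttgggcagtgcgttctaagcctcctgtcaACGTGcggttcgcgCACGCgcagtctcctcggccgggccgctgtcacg
Hif1a: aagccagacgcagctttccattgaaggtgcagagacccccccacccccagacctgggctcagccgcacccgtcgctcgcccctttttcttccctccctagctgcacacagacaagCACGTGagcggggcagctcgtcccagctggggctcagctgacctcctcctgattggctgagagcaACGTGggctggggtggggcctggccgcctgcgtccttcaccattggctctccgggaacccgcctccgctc
Egln1 has 2 matches, which begin 126 and 68 bases before the start, and Egln3 has 1, which begins 229 bases before it. Egln2 has 4 matches and Hif1a has 3, of which 2 overlap within the palindrome CACGTG. The other members' windows, not shown, have 2 matches in Hif3a, 1 in Arnt, 1 at the other start of Egln2, and 0 in Arnt2, Vhl and Hif1an. Match counts in the windows of Egln1 and Egln3 thus lie within the range of those of the other members. Of the 9 members with a window in the table, 6 have a match, and of all 32851 windows of this length 12679 (38.6%) have one. Matches depend on base composition, which ranges from 86.0% G and C in Egln1 to 50.8% in Egln3 among those shown. A match is a description of the letters and not of binding, and induced genes can carry their HIF sites outside such windows. No window was listed for Epas1.

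The subunit genes showed differences no larger than 0.26 on the log2 scale in the main values, in which the offset narrows differences of dim genes. Hif1a, the gene of the broadly expressed alpha subunit of HIF-1, had raw signals of 596 and 459, of log2 9.17 and 9.07 after normalization. Its log2 difference was -0.10 (1.07-fold lower), about the size of the technical spread of the control spots, which was taken on raw ratios. The authors' table held 377 and 375 for it. The Hif1a transcript signal was thus nearly level between arrays on which Egln1 and Egln3 were 3.11-fold and 2.78-fold apart. With the local background subtracted, Hif1a had -0.49, a larger difference than that of Egln1 in that setting.

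Epas1 encodes HIF-2 alpha, which is prominent in endothelial cells. Raw signals were 71.6 and 43.1, log2 signals 6.57 and 6.31, and the log2 difference was -0.26 (1.20-fold lower). In the authors' table, which adds no offset and so keeps differences of dim genes wider, Epas1 had 32.3 and 19.6, 1.64-fold apart. Across all 11 other settings, of which the mean of a gene's probes and the filters change no member, Epas1 ran from -0.72 to -0.16. It was below 0 in each and at least 2-fold lower in none. It had the lowest value of the subunit genes in the main setting.

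Hif3a encodes another alpha subunit, some splice forms of which oppose the others. Its raw signals were 35.9 and 29.99, only 1.44 and 1.35 times the background limits. The log2 signals were 6.01 on both arrays and the difference -0.004, so no difference was detectable at this signal. The value was 0.04 under median and 0.18 under 75th percentile scaling, which moved the median of all genes to 0.15. The probe is not known to separate the splice forms.

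Arnt, the gene of the common beta subunit, had raw signals of 39.1 and 26.7, or 1.56 and 1.20 times the limits. Its log2 signals were 6.07 and 5.92 and its log2 difference -0.15 (1.11-fold lower). In the authors' table the values were 10.9 and 5.69, 1.92-fold apart. With raw signals this near the blank level, the size of the Arnt difference moved with the treatment of background, from -0.94 in the authors' table to -0.06 with the local background subtracted. Arnt2, the beta subunit known best from neural tissue, had raw signals of 62.6 and 58.5, log2 signals of 6.45 and 6.61 and a log2 difference of 0.16 (1.11-fold higher). It was the 1 subunit gene above 0, and it had -0.06 with the local background subtracted.

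Vhl encodes the substrate receptor that binds the hydroxylated alpha subunit. Its raw signals were 119 and 74.0, its log2 signals 7.09 and 6.85 and its log2 difference -0.24 (1.18-fold lower). It had 0.11 with the local background subtracted and stayed below 0 in the other 10 settings. Of those, the mean of a gene's probes and the filters change no member.

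**Figure D2:**
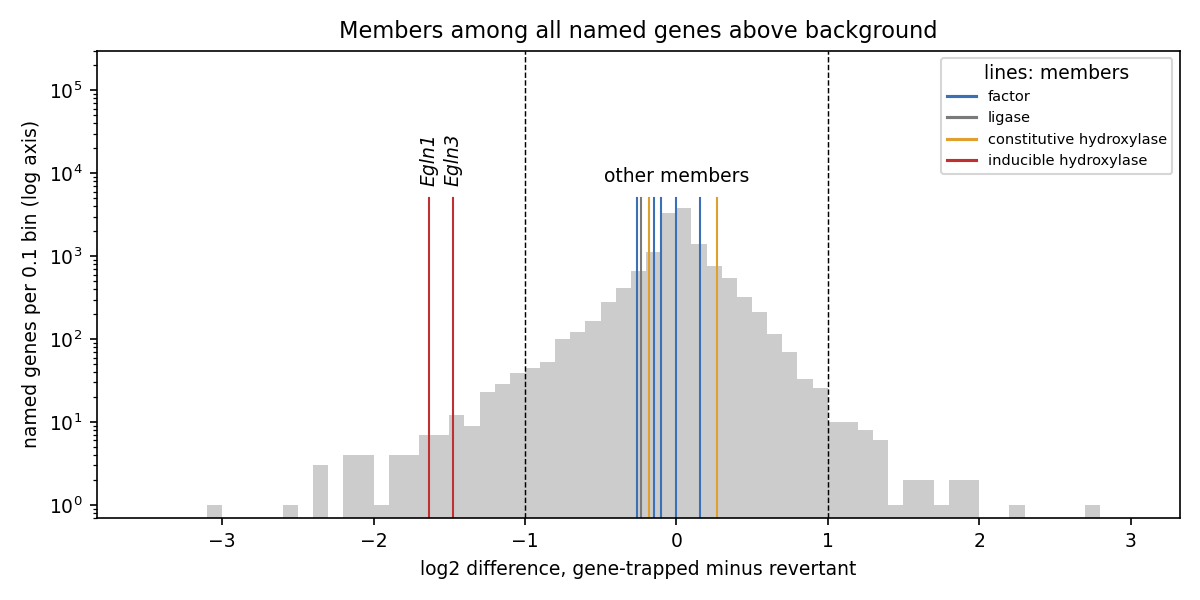
Histogram of log2 differences of 13753 named genes above background on both arrays (grey, log axis), with a line for each member coloured by class and dashed lines at 2-fold. Egln1 (-1.64) and Egln3 (-1.48) lie in the low tail, and the other 8 members lie between -0.26 and 0.27.

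The factors were then set against the inducible hydroxylases. The mean log2 difference of Egln1 and Egln3 was -1.56, that of the 5 subunit genes -0.07 and that of Egln2 and Hif1an 0.04. The inducible hydroxylases were thus 1.48 lower on the log2 scale than the factors. The higher of the inducible pair, Egln3, lay 1.22 below the lowest factor, Epas1, so the classes did not overlap in this setting. The offset narrows differences of dim genes, and the classes differ in brightness. Epas1, Hif3a, Arnt and Arnt2 had raw signals of 71.6 or less, against 689 and 395 for Egln1 and Egln3 on the revertant array. In the authors' table the lowest factor was Arnt (-0.94), and the higher of the inducible pair was Egln1 (-1.87). In 10 of 11 other settings both inducible genes lay below every other member. Among the 10, the mean of a gene's probes and the filter settings cannot change a member and repeat the main values. With the local background subtracted the inducible genes were not both lowest. Egln1 (-0.26) then lay above Hif1a (-0.49) and Egln2 (-0.40), and the gap between class means was -0.71.

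**Figure D3:**
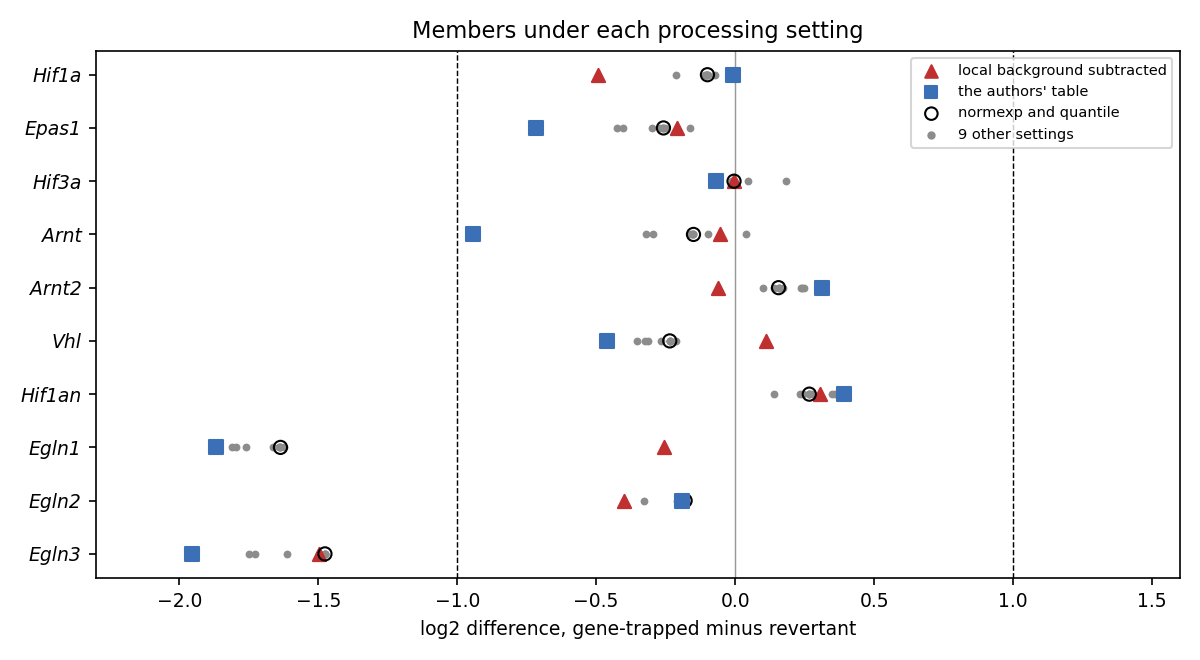
Log2 difference of each member in the main setting (open circles), with the local background subtracted (triangles), in the authors' table (squares) and in 9 other settings (dots), with dashed lines at 2-fold. Egln3 stays beyond 2-fold in all, from -1.96 to -1.48, and Egln1 in all except local background subtraction (-0.26).

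Other genes of the pathway were taken as lists. None of the 7 measured genes of the VHL ligase and its activation by Nedd8 was 2-fold apart, and all 7 lay above 0, where 46.6% of all genes lay below 0; under median scaling 4 of the 7 lay above 0. The elongin C gene Tceb1 had a log2 difference of 0.62, the RING subunit gene Rbx1 0.34, Nedd8 0.33, the cullin exchange factor gene Cand1 0.25 and the elongin B gene Tceb2 0.15. Cops5, of the COP9 signalosome, had 0.02 and the scaffold gene Cul2 0.01. The list's median was 0.25, and that of all genes 0.01. With the local background subtracted the list's median was 0.61 and 2 of the 7 were at least 2-fold higher.

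Of 9 measured regulators of HIF or hydroxylase abundance, none was 2-fold apart, and the median was 0.08, or -0.07 under median scaling. With the local background subtracted the median was 0.22 and 1 gene, Wsb1 (1.38), was at least 2-fold higher. The ubiquitin ligase genes Siah1a and Siah1b, whose products target prolyl hydroxylases for degradation, had 0.35 and 0.30. Siah2, of the same family, had raw signals of 25.4 and 22.3, at the background limits, and a difference of -0.001. Wsb1 had 0.20 and the deubiquitinase genes Usp33 and Usp20 -0.22 and 0.08. The chaperone genes Hsp90aa1 and Hsp90ab1 had 0.18 and 0.04, and Fkbp8, whose product binds PHD2, had 0.06.

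Coactivators and CITED inhibitors of HIF also held no gene 2-fold apart among 12 measured (median 0.05, or -0.03 under median scaling), although 2 were at least 2-fold higher with the local background subtracted, Apex1 (2.60) and the Mediator kinase gene Cdk8 (1.82). The pyruvate kinase gene Pkm2 had -0.75, the redox factor gene Apex1 0.67, the inhibitor gene Cited2 -0.22 and the coactivator gene Ncoa2 -0.21. Among other bHLH-PAS genes, the wider family of the HIF subunits, 7 of 13 on the array were above background on both arrays and none was 2-fold apart. Their median was -0.04, or 0.05 under median scaling, and the clock gene Clock had 0.15, Per1 -0.05, Arntl -0.05 and Per3 -0.05.

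The hydroxylases belong to the 2-oxoglutarate-dependent oxygenases. Of 38 other measured genes of this class, 1 was at least 2-fold lower and none higher, and the median was -0.02. The lower one was P4ha2, of collagen prolyl 4-hydroxylase, with raw signals of 620 and 106 and a log2 difference of -1.97. Its partner gene P4ha1 had -0.80, the collagen prolyl 3-hydroxylase gene Lepre1 -0.59 and the histone demethylase gene Jarid1b -0.58. P4ha2 and P4ha1 are, like Egln1 and Egln3, known HIF targets, and both also stand on the next list.

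Of 31 measured known HIF-1 targets outside the members, 10 (32.3%) were at least 2-fold lower, beside the 1.08% of all genes, and none was at least 2-fold higher. Differences lay below 0 for 28 of the 31 and above 0 for 3. Their median was -0.72. The glucose transporter gene Slc2a3 had -2.18, the phosphofructokinase gene Pfkp -2.13, the endoplasmic reticulum oxidase gene Ero1l -2.001 and P4ha2 -1.97. With the local background subtracted Ero1l had -0.31, below 2-fold as Egln1 was, and the list's median ranged from -1.19 to -0.36 over the other settings. Between 9 and 18 were at least 2-fold lower in the other settings, and with the local background subtracted 1, the lactate transporter gene Slc16a3, was higher (2.17), against -1.12 in the main setting. This list was chosen with a lower hypoxia list already known from these arrays, so its direction is no independent evidence beside Egln1 and Egln3. Of 6 measured genes tied to Epas1, 2 were at least 2-fold lower, the receptor genes Flt1 at -1.53 and Tek at -1.31, which are also endothelial markers. Angpt2 had 0.15 and Ptprb -0.13. The median was -0.12, from -0.87 in the authors' table, where 3 were at least 2-fold lower, to 0.07 under 75th percentile scaling. Epo, the classical HIF-2 target, had raw signals of 35.5 and 29.5 and a difference of -0.01.

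**Figure D4:**
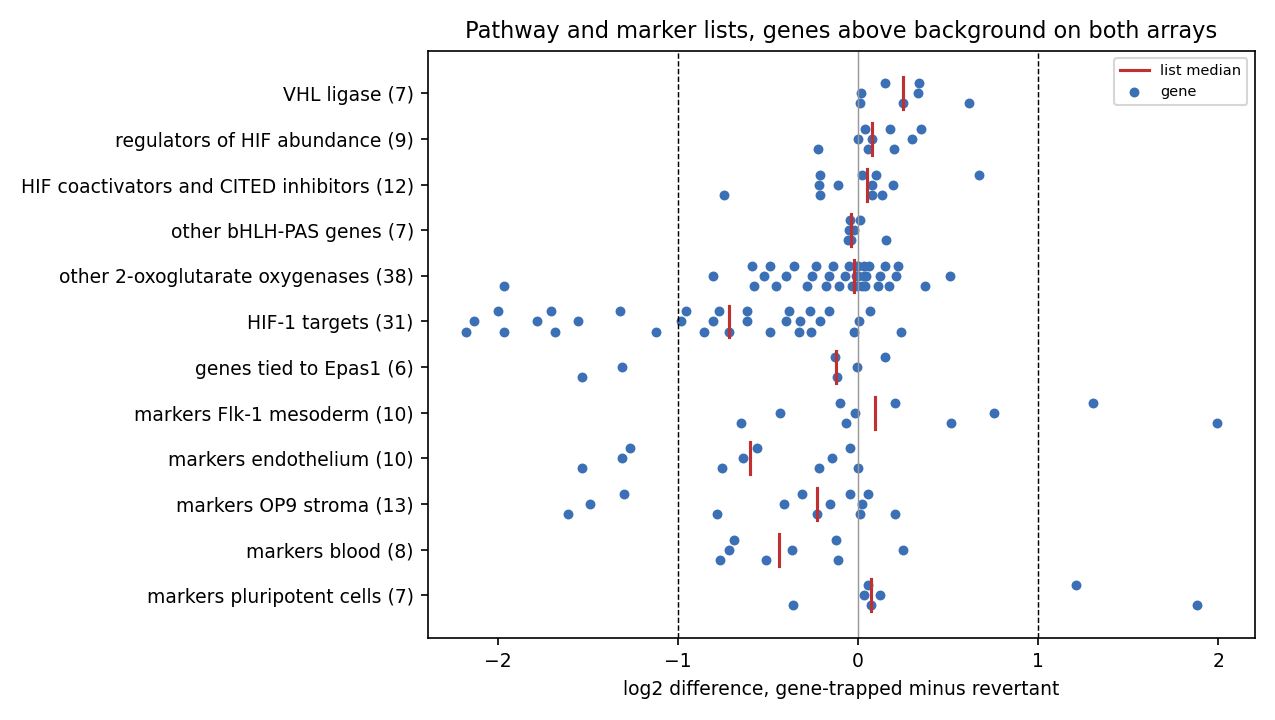
Log2 differences of genes above background on both arrays in each pathway and marker list (points, number of genes in parentheses), with list medians (red) and dashed lines at 2-fold. The HIF-1 targets have a median of -0.72, the VHL ligase genes 0.25 and the endothelial markers -0.60.

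Cell type markers are given because bulk RNA cannot tell fewer cells of a type from less RNA per cell. Markers of Flk-1 mesoderm were above background for 10 of 10 genes on both arrays, Kdr at raw signals of 1025 and 537 and Pdgfra at 175 and 134; 2 of the 10, Mixl1 (1.99) and Etv2 (1.30), were at least 2-fold higher in gene-trapped cells. T had 0.76 and Kdr -0.65, and the median was 0.09, or -0.04 under median scaling; with the local background subtracted Kdr had -2.04. Of 10 measured endothelial markers, 3 were at least 2-fold lower (Flt1, Tek and Pecam1 at -1.27; Ramp2 had -0.75) and 7 were not. Their median was -0.60, or -0.14 with the local background subtracted, and the summed signal over blank of the 11 on the array was 3290 and 1233. Cdh5, a defining gene, was above background on the revertant array alone, at 29.71 against 22.24, the latter just under the limit of 22.26. Its normalized log2 difference was -0.10, so at this signal no loss can be read from it. Of 13 measured stromal markers, 3 were at least 2-fold lower (Col5a1 -1.61, Col1a1 -1.49 and Acta2 -1.30; Col3a1 had -0.79), and 4 lay above 0, Cxcl12 highest at 0.20. Their median was -0.23, from -1.07 in the authors' table, where 7 were at least 2-fold lower, to -0.055 under 75th percentile scaling. Their summed signal over blank was 5421 and 1736, in which Acta2 was the brightest gene, with raw signals of 3603 and 1195. The defining stromal gene Dcn was not above background on either array. Blood markers had a median of -0.44 over 8 genes, with 0 at least 2-fold apart. Gata1 had -0.77, Itga2b -0.72, Tal1 -0.69 and Nfe2 -0.51. Differences lay below 0 for 7 of the 8, and Runx1 alone lay above 0, at 0.25. Ptprc was not above background on either array. The summed signal over blank of the 9 blood markers on the array was 683 and 299. Pluripotency markers had a median of 0.07 over 7 genes, with 2 at least 2-fold higher (Tdgf1 1.88, Dppa5 1.21), Klf4 at -0.36, Zfp42 at 0.12 and summed signals of 1850 and 3110; with the local background subtracted Dppa5 had -0.08 and Klf4 -1.57, so that 1 was at least 2-fold higher and 1 lower. The part of these cell types in the differences of Egln1, Egln3 and Epas1 was not tested.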

How the data were processed

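Each of 2 samples was measured on 1 array. Per the file headers, the deposited scanner files hold linear spot intensity (median at 635 nm), read at 3 gains and joined by a least-squares fit; the scanner is not named in the sources used here. A further table by the authors, deposited as linear intensity, followed the spot median less 22.4 (revertant) or 20.1 (gene-trapped), divided by 1 constant per array. It runs the same way as the scanner values.

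Intensities were corrected with normexp (offset 50, limma 3.58.1, R 4.3.3) on all 27456 spots, quantile-normalized over probes and put on the log2 scale; the offset narrows differences of dim genes. Spots of controls, and 2 flagged probes, were left out of the quantile normalization and of all gene values. Blank spots set the background limits, and positive controls the technical spread. Of 23471 probes, 16629 have 1 gene symbol in the platform annotation, 6842 none and 0 several; the annotation can be old. The brightest probe by mean spot median stood for a gene. Tables were made in pandas 2.3.3 (Python 3.11.15), and the steps were tested on simulated data. With 1 array per group no p-value or SE is given; called means at least 2-fold. The number of arrays limits precision.

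Named genes are the 10 members, all measured genes of the VHL ligase and HIF abundance lists, and up to 4 genes of each other list with the largest absolute difference. Cdh5, Dcn, Epo, Ptprc, Pdgfra, Cdk8, Cxcl12, Runx1 and Slc16a3 were added after their values were seen or as defining genes. Members and lists were chosen with earlier results of these data known. The 11 alternatives are 3 of background, 3 of normalization, spot position, the authors' table, the mean of a gene's probes, and a stricter (4 SD) or no filter. The mean of probes and the filters can change lists and counts over all genes, but no member.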

Additional observations from a re-analysis of the deposited data

Results flagged for a closer look

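The scanner's local background column, left out of the main values, held signal above the level of blank spots at the spots of 10 of 10 members on the revertant array and 10 of 10 on the gene-trapped array. It ranged from 22.8 (Hif3a) to 601 (Egln1) on the former and from 19.5 (Arnt) to 96.2 (Egln1) on the latter, where blank spots had means of 14.3 and 15.7. It was not a fixed share of the signal: Hif1a, with spot signals of 596 and 459, had local values of 50.8 and 44.5.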

How the results depend on the processing

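No paired analysis was possible because a single sample stands for either group. The count of members at least 2-fold lower was 2 in every alternative except subtraction of the local background, where it was 1 (Egln3), and no member was at least 2-fold higher in any of the 11. The mean of a gene's probes and the filters could not change these member counts. The gap between the inducible hydroxylases and the factors, -1.48 in the main setting, was -1.66 with offset 16, -1.65 with uncorrected background, -0.71 after subtraction of the local background, -1.59 under median and -1.59 under 75th percentile scaling, and -1.63 in the authors' table. A smaller offset widens differences by construction; apart from that the cause was not tested. 75th percentile scaling moved the median of all genes to 0.15, and Arnt (0.04) and Hif3a (0.18) then lay above 0. Over all genes, 238 were lower and 87 higher with offset 16, 227 and 84 with uncorrected background, 185 and 280 after subtraction of the local background, and 538 and 253 in the authors' table. Of 561 values recomputed under an alternative, 468 stayed within the technical spread or 1.5 times the count, 93 moved and 0 reversed a 2-fold difference. Only Egln1, Egln3 and the gap between classes could count as reversed, since no other member difference or list median was past 2-fold. Changes of sign in smaller values were counted as moved or as having stayed. Member values under the mean of a gene's probes and the filters stayed by construction. The 561 are values of members, classes, and list counts and medians. They take in no single gene of a list, such as Slc16a3, which turned from -1.12 to 2.17 with the local background subtracted. Low signal over background limits Hif3a and Arnt.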
